A study of Rattus norvegicus with 8 samples.

Results

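Liver RNA of obese and lean rats, all treated with the slowly released androgen ester testosterone undecanoate (TU), was compared on Agilent rat expression arrays. The 8 RNA samples compared were the Cy5 channels of 4 obese and 4 lean arrays, out of 16 RNA samples in both channels of the 8 arrays. All animals were male Zucker diabetic fatty rats aged 12 weeks. Obese rats were fa/fa and lean rats fa/+. The fa allele encodes a defective leptin receptor, and the lean rats carry 1 copy of it. TU had been injected under the skin at 20 mg/kg for 4 weeks, every 3 days for 2 weeks and then once a week. The Cy3 channel of each array held liver RNA of vehicle-injected rats of the same genotype and is used here for comparison. The labels call the arrays biological replicates but do not say whether each RNA is from a separate animal, so p-values measure the spread between these arrays. All lean arrays lay on 1 slide and all obese arrays on another, so slide and genotype cannot be told apart in any obese-against-lean difference below. Whole liver was measured, so fewer cells of a type and less RNA per cell cannot be told apart either.

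Leptin is a hormone of fat cells that limits food intake, and rats without a working leptin receptor overeat, become obese and store fat in the liver. Insulin drives the hepatic genes of fatty acid synthesis through SREBP-1c, and the insulin level of these rats was not part of the data. The liver of rats is also a sex-dimorphic organ: pulses of growth hormone in males, acting through STAT5B, hold male-biased genes high and female-biased genes low. Testosterone acts on this pattern mainly through the pituitary secretion of growth hormone. The series title places the comparison in the question of whether leptin signalling governs how testosterone regulates hepatic lipid metabolism.

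Levels below are log2 Cy5 intensities after background correction and normalization, and differences are obese minus lean, in log2 units, with the standard error (SE) of the limma fit, unless another scale is named. Each feature is a gene, represented by its brightest probe, or a probe without a gene name. A feature was called when its Benjamini-Hochberg adjusted p over all features was under 0.05. Of 20691 features tested, 4933 were called, which is 23.8%. Of these, 2796 were higher in obese liver, 13.5% of all features, and 2137 were lower, 10.3% of all features. With the scanner software's processed signal 3315 were higher and 3828 lower, so the balance of the directions depends on the scaling. Among features with a gene name, 1316 were higher and 810 lower, of 9095 tested. A difference of at least 2-fold was reached by 210 higher and 369 lower features. The count of calls was 7476 without obese array 1, 3201 without lean array 1 and 3182 without lean array 4. Counts of list members called without 1 array, given below, are to be read beside these changes in the count over all features. Median centring of Cy5 alone, with no step to match the spread of the arrays, left 2 calls. After background correction but before such a step, the interquartile range of the log2 levels ran from 0.166 on obese array 3 to 2.04 on obese array 2. In the scanner software's processed signal it ran from 4.76 on obese array 1 to 6.25 on obese array 2, with 6.04 on obese array 3.

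Parts of several arrays had deviating signal. A region around the centre had lost Cy5 signal on obese array 1 and, over a smaller area, on lean array 1. The local median lay more than 0.5 below the median of all 8 arrays for 11.1% of spots on obese array 1, 7.25% on obese array 4 and 3.45% on lean array 1. On obese array 4 these spots lay along the right edge. On obese arrays 2 and 3 the centre was brighter, with 3.94% and 6.86% of spots more than 0.5 above. In the outermost rows, between 40.7% and 50% of bright probes on the 4 obese arrays lay more than 1.5 below the lean level, and 0% did on the lean arrays. All comparisons were therefore repeated without spots in these areas, the outer 10 rows and the outer 4 columns, called the affected areas below. Outside them 17804 features were tested and 5454 were called, which is 30.6%, with 16.2% higher and 14.4% lower. Of the 4933 calls, 3951 were called there with the same sign and 645 had no spots left to test.

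**Figure D1:**
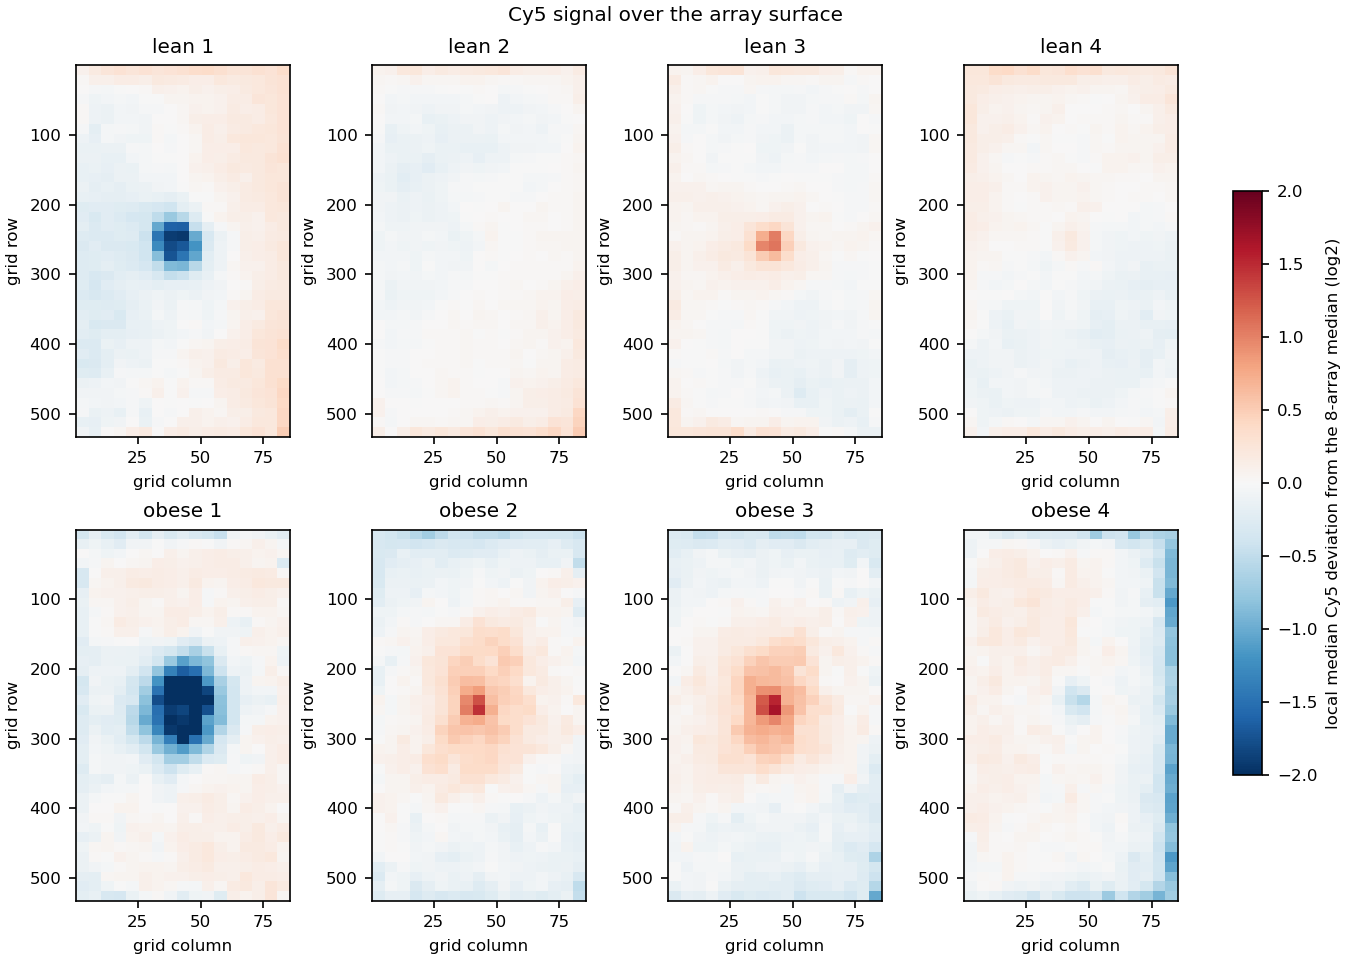
Local median deviation of Cy5 log2 intensity from the median of all 8 arrays, by grid row and grid column, with 1 panel for each array (blue is lower, red is higher). Signal was lost around the centre of obese array 1 and lean array 1 and along the right edge of obese array 4, and it was raised at the centre of lean array 3 and obese arrays 2 and 3.

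Obese array 1 stood apart from its group: its correlation with the other obese arrays was 0.932 to 0.943 over all features, and 0.978 to 0.984 outside the affected areas. Lean arrays correlated with each other at 0.982 to 0.997. The Cy5 levels of the 10 spike-in RNAs were also lower on the obese arrays, by a median of -1.87 (range -2.10 to -1.43). Their part in the results was not tested. Hepatocyte markers were abundant in both groups, with a mean level over 11 genes of 15.0 to 15.2 on the lean arrays and 14.6 to 15.3 on the obese arrays. The shifts in the markers of other liver cell types are given with the cell types below.

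Of the genes with the largest higher levels in obese liver, 11 are named here: Dbp, Sult2a2, Fasn, Fabp2, Cyp17a1, Fgf21, Slc2a5, Tspan31, Sult2a6, Col1a1 and Wfdc21. None of their probes lay in the outer rows or columns, and all 11 were called outside the affected areas. In each of them the lowest obese array exceeded the highest lean array, as the choice of these genes required. Over all features 30.1% had groups that did not overlap in either direction.

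**Figure D2:**
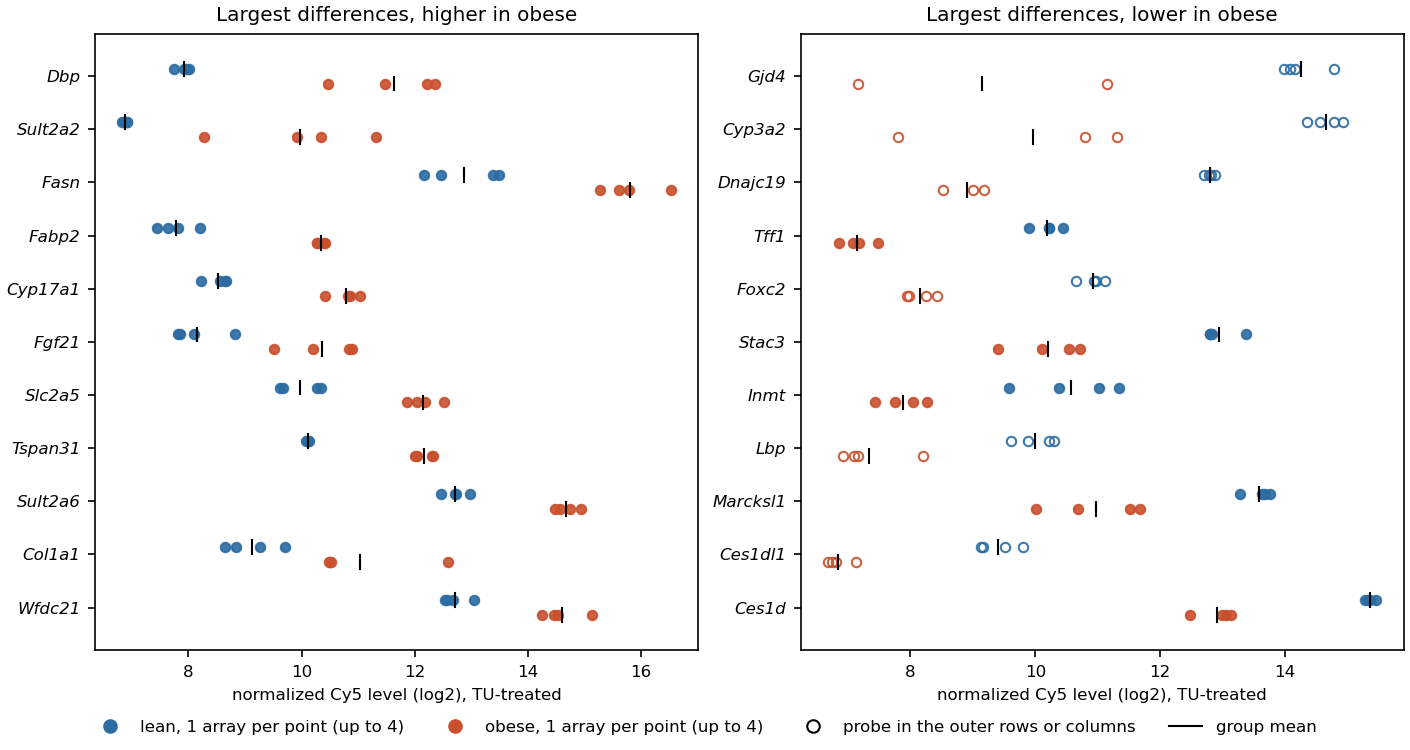
Normalized Cy5 level (log2) on each array for 11 named genes among the largest higher and 11 among the largest lower levels in obese liver; points are arrays, bars are group means, and open points are probes in the outer rows or columns. Of the lower genes, 6 have open points, and none of the higher genes do; a few spots flagged as non-uniform are missing.

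Dbp, a clock output factor that binds D-box sequences, differed most. Its level was 7.75, 7.92, 8.02 and 7.98 on lean arrays 1 to 4, and 10.47, 11.48, 12.36 and 12.22 on the obese arrays. All obese arrays stood far above all lean arrays, with the lowest value on obese array 1. The difference was 3.72 (SE 0.38), or 13.1-fold, with an adjusted p of 0.00077. Per2, a core clock repressor, was also higher, by 1.28 (SE 0.20, adjusted p 0.00416), with lean levels of 7.16, 6.96, 7.78 and 7.30 and obese levels of 8.17, 8.59, 8.89 and 8.68. Of the 15 clock genes tested, 3 were higher and 2 lower, beside 13.5% and 10.3% of all features, with a median of 0.12. The other higher gene was Nr1d2. The lower genes were Cry1, by 0.61, and Nfil3, a repressor that binds the same D-box sequence, by 0.65. Both lost the call when lean array 1, lean array 2 or lean array 4 was left out, Cry1 at adjusted p 0.0595, 0.0608 and 0.0735 and Nfil3 at 0.0945, 0.0887 and 0.0587. Nfil3 also lost it without lean array 3 (0.0529) or obese array 2, 3 or 4 (0.0715, 0.0840 and 0.0808), and Cry1 without obese array 2 (0.0643) or 3 (0.0515). Cry1 was not called with the local deviation subtracted (-0.26, 0.191) or the processed signal (-0.45, 0.100), nor Nfil3 in the separate-channel fit (0.156) or with no filter on dim probes (0.0565). Without obese array 1 the higher count of the list was 5. Per1, Clock and Nr1d1 were not called, at 0.09, 0.09 and 0.12.

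The D-box bound by Dbp is present upstream of Per2. The sequence shown is the 250 bases before the Per2 start in RefSeq (build GRCr8, minus strand, chr9:99496994-99497243), printed because Dbp and Per2 were both called higher. Capitals mark the match to TTATGTAA, searched on both strands.
Per2: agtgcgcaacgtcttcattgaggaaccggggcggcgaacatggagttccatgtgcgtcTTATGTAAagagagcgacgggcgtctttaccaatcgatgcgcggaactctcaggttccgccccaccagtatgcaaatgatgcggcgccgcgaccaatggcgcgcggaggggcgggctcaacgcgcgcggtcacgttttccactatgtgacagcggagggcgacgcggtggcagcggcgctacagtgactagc
These letters occur in 0.828% of the 33469 promoter windows of the same length. Of the 132 genes named by the rule or singled out here, 96 had a promoter in the table, and 3 of these held the letters: Per2, Ces1d and Ces1dl1. A match is a description of the sequence and was not measured as binding.

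Many genes of fatty acid synthesis were higher in obese liver under TU. Of 22 tested, 10 were higher and 0 were lower, against 13.5% and 10.3% of all features, with a median of 0.69 against 0.02 over all features. Outside the affected areas the counts were 12 and 1, with a median of 0.62. Fasn, the synthase that assembles palmitate, had levels of 12.16, 12.47, 13.39 and 13.49 on the lean arrays and 15.79, 15.61, 15.27 and 16.52 on the obese arrays. The groups were clearly apart, by 2.92 (SE 0.37), or 7.59-fold, with an adjusted p of 0.00162. A weaker second Fasn probe gave 1.83.

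The other large members cover the supply of substrate and the lengthening of chains. Acly, which makes cytosolic acetyl-CoA from citrate, was higher by 1.53 (SE 0.24, adjusted p 0.00417). The elongase Elovl6 was higher by 1.87 (SE 0.35), with 9.85, 9.94 and 9.89 on obese arrays 1 to 3 and 10.95 on array 4. Thrsp, a small protein that rises with lipid synthesis, was higher by 1.33 (SE 0.33, adjusted p 0.0223), and it lost the call without lean array 1 (0.0563), lean array 2 (0.0558) or obese array 4 (0.0555), and with the processed signal (1.12, 0.0515). The desaturase Scd missed the threshold, at 1.04 (SE 0.35, adjusted p 0.0668). Its obese levels spread from 13.99 to 15.89 and overlapped the lean levels of 13.65 to 14.21 only at their lower end. Without obese array 3 it was called at 1.35 (adjusted p 0.0146), as it was with the local deviation subtracted (1.07, 0.0384) and with the processed signal (1.05).

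Among 22 genes of triglyceride synthesis and lipid droplets, 6 were higher and 2 lower, beside 13.5% and 10.3% of all features. The median was 0.21. G0s2, an inhibitor of the lipase that opens lipid droplets, was higher by 1.32 (SE 0.16, adjusted p 0.00153). Dgat2, which adds the last fatty acid to a triglyceride, was higher by 1.21 (SE 0.16), with lean levels of 13.31 to 13.67 and obese levels of 14.39 to 14.98. Agpat3, an acyltransferase of the same pathway, was higher by 0.81. Gpam, its first enzyme, was higher by 0.93 (adjusted p 0.0238); its probe lies in the outer columns, and it lost the call without lean array 1 (0.0635), lean array 2 (0.0637) or obese array 2 (0.0585) and in the separate-channel fit (0.103). Leaving out any 1 array other than obese array 1 or 4 left the list with 0 or 1 lower members.

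**Figure D3:**
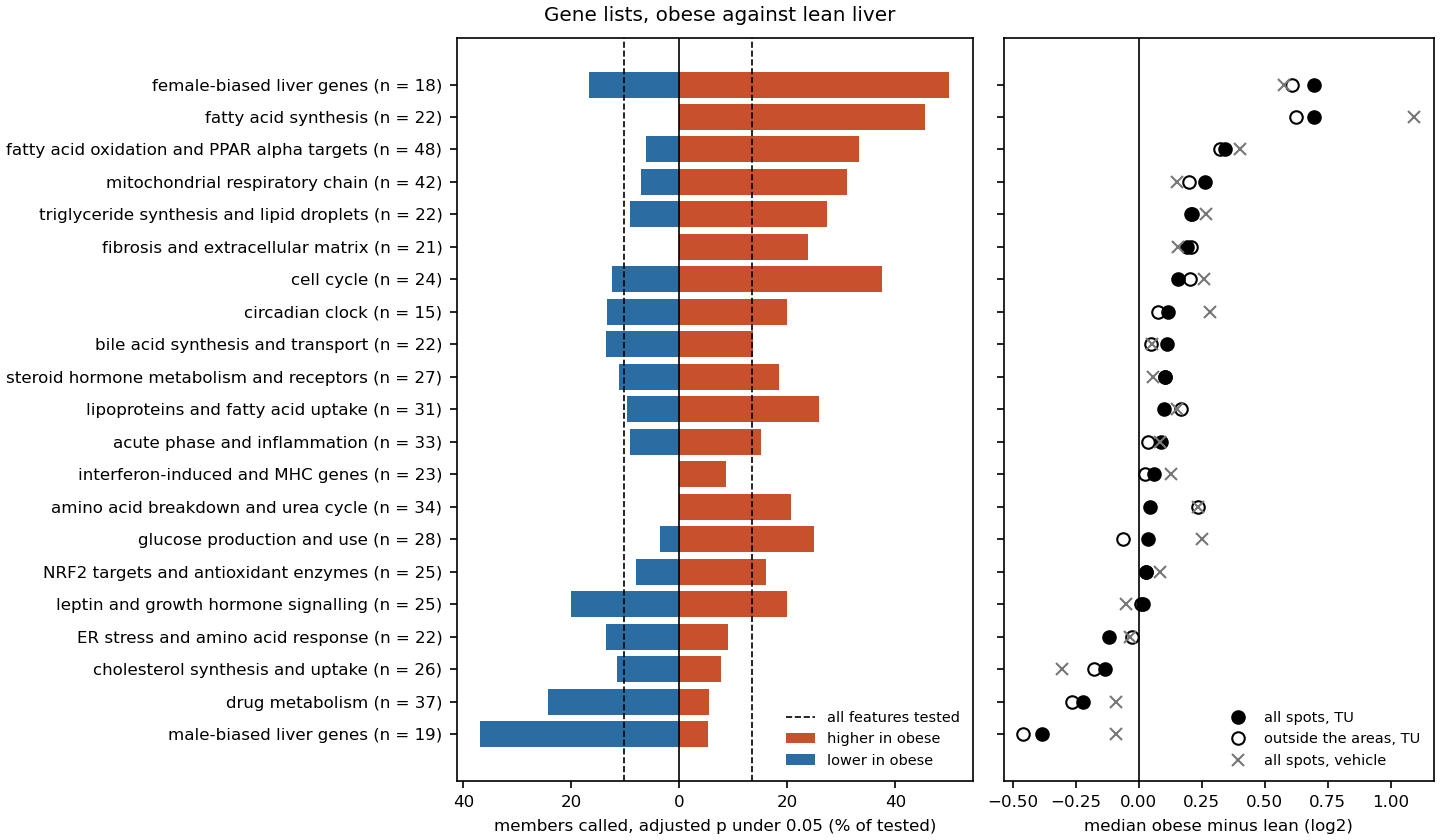
Left, share of the tested members of each gene list that were higher (red) or lower (blue) in obese liver under TU at an adjusted p under 0.05, with dashed lines at the shares of all features, 13.5% and 10.3%. Right, median obese minus lean difference (log2) of each list under TU over all spots and outside the affected areas, and under vehicle over all spots; fatty acid synthesis and female-biased genes have the highest medians under TU and male-biased genes the lowest.

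Several genes of fatty acid oxidation, many of them PPAR alpha targets, were higher as well. Of 48 tested, 16 were higher and 3 lower, beside 13.5% and 10.3% of all features, with a median of 0.34. Without lean array 4 the higher count was 10. Fgf21, a liver hormone induced by PPAR alpha, was higher by 2.21 (SE 0.35), or 4.63-fold, with an adjusted p of 0.00397. Its lean levels were 8.11, 7.81, 8.83 and 7.85, and its obese levels 10.88, 10.84, 10.20 and 9.52. Hadhb, a subunit of the mitochondrial trifunctional protein, was higher by 1.41 (SE 0.11, adjusted p 0.000279), and Eci1, which prepares unsaturated chains for oxidation, by 1.40. Vnn1, a pantetheinase and PPAR alpha target, was higher by 1.39. Cpt1a, the gate for fatty acids into mitochondria, was not called, at 0.85 (SE 0.34, adjusted p 0.106). Lean Cpt1a levels split, at 10.96 and 11.13 on arrays 1 and 2 but 9.61 and 9.94 on arrays 3 and 4, beside obese levels of 10.98 to 11.47.

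Lean arrays 1 and 2 also differed from lean arrays 3 and 4 in Cyp7a1 and Igfbp1, both singled out after their values were seen. Cyp7a1, the rate-limiting enzyme of bile acid synthesis, was at 8.48 and 8.36 on lean arrays 1 and 2 and at 10.63 and 10.61 on lean arrays 3 and 4. Its 3 measured obese levels were 10.81, 10.84 and 11.55, and the difference of 1.55 (SE 0.65) was not called (adjusted p 0.132), though it was with the local deviation subtracted (1.88, 0.0421). Its probe lies in the outer columns. Igfbp1, a binding protein that insulin represses, ran the other way, at 11.68 and 11.57 on lean arrays 1 and 2 and 10.77 and 10.92 on arrays 3 and 4. Igfbp1 was lower in obese liver all the same, by 1.15 (SE 0.23, adjusted p 0.00961), with obese levels of 9.79 to 10.29.

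Of 28 genes of glucose production and use, 7 were higher and 1 was lower, beside 13.5% and 10.3% of all features. The median of 0.03 was -0.04 after median centring, -0.21 with the processed signal and -0.06 outside the affected areas, so it has no settled sign. Slc2a5, a fructose transporter, was higher by 2.17 (SE 0.21), with 9.61 to 10.35 in lean and 11.86 to 12.51 in obese liver. Ldha and Pdk2, which act on lactate and on pyruvate dehydrogenase, were higher by 1.41 and 0.94. The gluconeogenic enzyme Pck1 could not be read on obese array 1: its level was 8.40 there, within the central region of lost signal, and 12.61, 12.91 and 12.69 on the other obese arrays. With all spots the Pck1 difference was -1.26 (SE 0.95, adjusted p 0.376), and outside the affected areas it was -0.34 (adjusted p 0.331).

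Among genes of lipid transport, 2 fatty acid binding proteins differed strongly and in opposite directions. Of 31 genes of lipoproteins and fatty acid uptake, 8 were higher and 3 lower, beside 13.5% and 10.3% of all features. The median of 0.10 was -0.17 after median centring and -0.09 with the processed signal. Fabp2, a fatty acid binding protein typical of intestine, was at 7.44 to 8.20 on the lean arrays and 10.28 to 10.41 on the obese arrays, a difference of 2.57 (SE 0.15). Cd36, a fatty acid translocase, was higher by 1.52 (SE 0.20, adjusted p 0.00192). Fabp7, the brain-type binding protein, was lower by 2.20 (SE 0.20), with 11.18 to 12.08 in lean and 9.16 to 9.54 in obese liver. Apob, the protein core of secreted lipoproteins, was higher by 0.91 (adjusted p 0.0441), but at adjusted p 0.0551 outside the affected areas and between 0.0685 and 0.115 without any 1 lean array or without obese array 2, 3 or 4. With the processed signal Apob was at 0.45 (0.0976), and it was not called with the local deviation subtracted (0.0551) or no filter on dim probes (0.0732). The list had 5 higher members without lean array 1, lean array 2 or obese array 2, and 1 lower member without lean array 2 or 3 or obese array 2 or 3.

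Of 26 genes of cholesterol synthesis and uptake, 2 were higher and 3 lower, with a median of -0.14, while 23.8% of all features were called. Idi1, an isomerase early in sterol synthesis, was lower by 1.48 (SE 0.25, adjusted p 0.00559), at 11.64 to 12.18 in lean and 9.81 to 11.07 in obese liver. Ebp, a sterol isomerase, was lower by 1.47, from a probe in the outer rows. The acetyl-CoA thiolase Acat2 was lower by 0.94 (adjusted p 0.0320), though not called without lean array 2 (0.0784), 3 (0.0833) or 4 (0.0875) or obese array 2 (0.0531) or 4 (0.0705), nor with no filter on dim probes (0.0532). The list had 0 higher members without lean array 1, 3 or 4 or obese array 4, and without lean array 1 it had 5 lower ones. Among 22 genes of bile acid synthesis and transport, 3 were higher and 3 lower, shares close to the 13.5% and 10.3% of all features. The racemase Amacr was lower by 0.83 (adjusted p 0.00732). Without lean array 1 or obese array 2, 0 genes of the bile acid list were called higher, and without lean array 2, 3 or 4 or obese array 3 only 1 was. The largest lower value there, Abcg5 at -1.96, came from an outer column, with 7.09 on obese array 4.

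Several male-biased liver genes were lower and several female-biased ones higher in obese males. Of 19 male-biased genes, 7 were lower and 1 was higher, beside 10.3% and 13.5% of all features, with a median of -0.38. Outside the affected areas the median was -0.46 with 7 lower of 16, beside 14.4% of all features there. Without obese array 1 the median was -0.14. Of 18 female-biased genes, 9 were higher and 3 lower, beside 13.5% and 10.3% of all features, with a median of 0.70. The lowest value in this list was -1.48. Outside the affected areas 10 of the 18 were higher and 4 lower, beside 16.2% and 14.4% of all features there. Both medians kept their sign under the 3 other scalings, and leaving out any 1 array left at least 7 lower male-biased and at least 8 higher female-biased genes. Lower calls among the female-biased genes fell from 3 to 1 without lean array 1, 2 or 4 or obese array 2.

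Sult2a2, a hydroxysteroid sulfotransferase, was near the background on the lean arrays, at 6.85, 6.84, 6.91 and 6.92, and reached 8.28, 10.34, 9.92 and 11.32 on the obese arrays. The obese arrays varied widely but all exceeded the lean ones, and the difference was 3.08 (SE 0.55, adjusted p 0.00627). Its family member Sult2a6 was higher by 1.96 (SE 0.13), at 12.47 to 12.97 in lean and 14.47 to 14.94 in obese liver. Probes of such close family members may share signal, which also holds for the P450 and carboxylesterase genes below. Cyp17a1, the steroid 17-hydroxylase, was higher by 2.25 (SE 0.15, adjusted p 0.000178). Cyp2c12, the classic female-specific P450 of rat liver, was at 7.36 to 7.65 in lean and 9.05 to 9.42 in obese liver, higher by 1.72 (SE 0.10). Prlr, the prolactin receptor, was higher by 1.57 (SE 0.18).

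On the male-biased side, Cyp3a18 was lower by 2.28 (SE 0.27), at 13.49 to 14.11 in lean and 10.82 to 12.03 in obese liver. Car3, a carbonic anhydrase, was lower by 2.19 (SE 0.19, adjusted p 0.000446), and the lipocalin Obp3 by 1.65. Hsd11b1, which regenerates active glucocorticoid, was lower by 1.24 (SE 0.12, adjusted p 0.000734). The value for Cyp3a2, -4.69, came from a probe in column 84 with obese levels of 10.79, 11.31 and 7.80, and no spot outside the affected areas measured it. The one male-biased gene called higher was Akr1b7.

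Of 27 genes of steroid hormone metabolism and receptors, 5 were higher and 3 lower, beside 13.5% and 10.3% of all features. Without any 1 array other than obese array 1 the higher count was 3 (without obese array 1 it was 10). Srd5a1, the 5-alpha-reductase that turns testosterone into dihydrotestosterone, was higher by 1.33 (SE 0.26, adjusted p 0.00995). Its lean levels were 10.84, 10.77, 11.43 and 11.62 and its obese levels 12.04, 12.23, 12.74 and 12.97, so every obese array exceeded every lean one. Sult2a1, which sulfates steroids, was higher by 1.03, and the glucuronosyltransferase Ugt2b1 was lower by 1.03 (adjusted p 0.00232).

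In leptin and growth hormone signalling, 2 feedback inhibitors downstream of STAT5 were lower. Of 25 genes tested, 5 were higher and 5 lower, beside 13.5% and 10.3% of all features, with 3 higher without lean array 2. Socs2, an inhibitor of growth hormone signalling that STAT5 induces, was at 9.73, 8.80, 8.74 and 9.03 in lean and 7.93, 7.17, 7.18 and 7.26 in obese liver. All obese values lay below all lean values, by 1.69 (SE 0.25), or 3.23-fold, with an adjusted p of 0.00336. Cish, another such inhibitor, was lower by 1.30 (SE 0.10, adjusted p 0.000249), at 9.15 to 9.28 in lean and 7.63 to 8.07 in obese liver. Its probe lies in the outer 4 columns, so no value outside the affected areas exists for it.

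Binding sites of STAT5 are found upstream of Cish. The 250 bases before its start in RefSeq (build GRCr8, plus strand, chr8:116850719-116850968) are printed because Cish and Socs2 were both called lower. Capitals mark matches to TTCNNNGAA, which reads the same on both strands.
Cish: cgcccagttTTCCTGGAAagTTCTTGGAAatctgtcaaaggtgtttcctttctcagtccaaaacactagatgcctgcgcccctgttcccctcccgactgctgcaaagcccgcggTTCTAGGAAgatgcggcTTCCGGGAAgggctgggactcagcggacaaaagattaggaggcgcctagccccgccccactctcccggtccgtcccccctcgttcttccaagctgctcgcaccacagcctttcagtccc
The window held 4 matches, while 7.67% of the 33469 windows held at least 1. Of the 96 genes with a promoter, 16 held a match, among them Dbp and Prlr, which were called higher. Socs2 had no promoter in the table, so its upstream bases were not searched. The match was not tested as a site of binding.

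Lepr, the leptin receptor, was at 7.34, 7.26, 7.35 and 7.34 in lean and 7.31, 7.48, 7.45 and 7.57 in obese liver, and its difference of 0.13 (SE 0.07, adjusted p 0.216) was not called. The level of the transcript does not report the function of the fa allele. Ghr, the growth hormone receptor, was higher by 0.62 (SE 0.10, adjusted p 0.00446), but by 0.29 with the processed signal, which was not called (adjusted p 0.123). Igf1, the hormone that growth hormone induces in liver, was higher by 0.51 (SE 0.12, adjusted p 0.0175). That call was lost without lean array 2 (0.0514), and with the mean of all Igf1 probes the value was 0.24 (0.0957) and with the processed signal 0.16 (0.680). Stat3 was at -0.06 (SE 0.22, adjusted p 0.869), with a sign that changed among the alternatives.

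Several drug-metabolizing enzymes were lower. Of 37 genes tested, 9 were lower and 2 higher, beside 10.3% and 13.5% of all features, with a median of -0.22. Ces1d, an abundant carboxylesterase that can hydrolyse triglyceride, was at 15.47, 15.29, 15.33 and 15.36 in lean and 13.05, 12.48, 13.14 and 13.00 in obese liver. Both groups were tight, and the difference was -2.45 (SE 0.14), or 5.45-fold lower, with an adjusted p of 9.45e-05. Cyp2j3 was lower by 1.16 and Fmo5, a flavin monooxygenase, by 1.05. Gstm2, a glutathione transferase, had a value of -1.41 from an outer column.

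The other genes with the largest lower levels were of mixed function. Tff1, a secreted trefoil peptide of mucosal surfaces, was at 9.89 to 10.44 in lean and 6.86 to 7.48 in obese liver, a difference of -3.05 (SE 0.16, adjusted p 5.99e-05), and on 1 obese array it was not well above background. Inmt, an indole N-methyltransferase, was lower by 2.70 (SE 0.37), at 11.02, 11.34, 9.58 and 10.38 in lean and 8.27, 7.44, 8.04 and 7.75 in obese liver. Marcksl1, an actin-binding kinase substrate, was lower by 2.62 (SE 0.35), with obese levels of 10.02 to 11.67 below lean levels of 13.28 to 13.77. Stac3, an adaptor of muscle calcium channels, was at -2.75, and at -2.59 outside the affected areas, which hold its spot on 2 obese arrays. Mcfd2, Gfra1 and Sult1c3, named after their values were seen, were lower by 2.25, 2.06 and 1.99.

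Another 6 genes among the largest lower values had probes in the outer rows or columns. They were Gjd4 (-5.11, adjusted p 0.0641 with replicate number as a block), Cyp3a2 (-4.69), Dnajc19 (-3.90), Foxc2 (-2.77), Lbp (-2.66) and Ces1dl1 (-2.56). In this outer zone 22.0% of 2410 features were called lower and 6.18% higher, against 8.79% and 14.5% of the 18281 features elsewhere. Of the features lower by at least 4-fold, 44 lay in the outer zone and 23 elsewhere. A second probe of Dnajc19 gave -0.23. For the replication factor Pcna a second probe gave 0.29, beside -2.25 from the brighter one in the affected areas.

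Among 24 cell cycle genes, 9 were higher and 3 lower, beside 13.5% and 10.3% of all features, with a median of 0.16. The G1 cyclin Ccnd1 was higher by 1.21 (adjusted p 0.0234), with lean levels of 8.88 to 10.32 and obese levels of 10.58 to 11.36, and it was not called without lean array 2 (0.0582) or obese array 4 (0.0561). Cdkn1a, an inhibitor of the cycle, was lower by 1.02 (SE 0.16, adjusted p 0.00421). The mitotic kinase Cdk1 had a value of 1.33 from an outer column, with 9.82 on obese array 1 and 8.74 to 8.88 on the others.

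Of 42 genes of the mitochondrial respiratory chain, 13 were higher and 3 lower, beside 13.5% and 10.3% of all features. The higher count was 7 without lean array 1, 8 without obese array 4 and 19 without obese array 1, where the lower count was 5. The median of 0.26 turned to -0.10 after median centring and -0.05 with the processed signal, so the list as a whole has no settled direction. The complex I subunit Ndufv2 was higher by 0.88 (SE 0.09, adjusted p 0.000734), and Atp5f1a, a subunit of the ATP synthase, by 0.82. Sdhc, from an outer row, had a value of -0.87. With the processed signal neither Atp5f1a (0.37, adjusted p 0.0515) nor Sdhc (-0.53, 0.0552) was called. Among 34 genes of amino acid breakdown and the urea cycle, 7 were higher and 0 lower, beside the same shares of all features. Agxt, which removes glyoxylate, was higher by 1.16 (SE 0.11, adjusted p 0.000734), and Cps1, the first step of the urea cycle, by 0.86. The higher count was 4 without lean array 3 or lean array 4 and 12 without obese array 1.

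Of 22 genes of stress in the endoplasmic reticulum (ER) and the amino acid response, 2 were higher and 3 lower, shares close to the 13.5% and 10.3% of all features. The lower ones were the chaperones Hspa5, by 1.05 (SE 0.16, adjusted p 0.00346), and Hsp90b1, by 0.74, and the disulfide isomerase Pdia3, by 0.58 (adjusted p 0.0595 in the separate-channel fit). Herpud1, a factor of protein degradation at the ER, was higher by 1.57 (SE 0.12), at 12.32 to 12.77 in lean and 13.96 to 14.37 in obese liver. Of 25 NRF2 targets and antioxidant enzymes, 4 were higher and 2 lower, again shares close to those of all features. The peroxiredoxins Prdx6 (0.87), Prdx3 (0.74) and Prdx1 (0.55) were among the higher ones. With the processed signal Prdx1 was at 0.20 and not called (adjusted p 0.232). Without obese array 1, where more of all features were called, there were 6 higher and 8 lower members. Without lean array 2, 3 or 4 or obese array 2 or 3 there was 1 lower member.

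Of 33 acute phase and inflammation genes, 5 were higher and 3 lower, shares close to the 13.5% and 10.3% of all features. C9, the last component of complement, was lower by 1.69 (SE 0.11, adjusted p 0.000147), at 14.64 to 14.82 in lean and 12.87 to 13.27 in obese liver. The complement gene C4a was higher by 1.16, not called without lean array 3 (adjusted p 0.0552) or 4 (0.0620), and the adhesion molecule Icam1 was higher by 0.85 (SE 0.08, adjusted p 0.000734). The higher count of the list was 2 without lean array 2 or 4, 3 without lean array 1 or obese array 3, and 8 without obese array 1, where the lower count was 7. Of 23 interferon-induced and MHC genes, 2 were higher and 0 lower, both below the shares of all features. The 2 were the peptide transporter Tap2, by 0.74, and the class II chaperone Cd74, by 0.33. The Cd74 call was lost with trend and robust settings (adjusted p 0.0715), in the separate-channel fit (0.0649), with the local deviation subtracted (0.13, 0.311) and with the processed signal (0.03, 0.894). Without obese array 1 there were 4 higher and 5 lower. The antiviral gene Bst2, chosen after its value was seen, was higher by 1.79 (SE 0.17, adjusted p 0.000631).

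Of 21 genes of fibrosis and extracellular matrix, 5 were higher and 0 lower, beside 13.5% and 10.3% of all features. The median was 0.19. Col1a1, a chain of type I collagen, was at 8.85, 8.65, 9.71 and 9.26 in lean and 10.53, 12.59, 10.49 and 10.51 in obese liver. Obese array 2 stood well above the other obese arrays, and the difference was 1.91 (SE 0.49, adjusted p 0.0261). Without lean array 1, 2 or 4 the adjusted p was 0.0715, 0.0712 and 0.0602, with replicate number as a block it was 0.0541, and a weaker second probe gave 0.31. Fn1, fibronectin, was higher by 0.93 (SE 0.12, adjusted p 0.00200), Col3a1 by 0.82 and the proteoglycan Bgn by 0.64. With the processed signal neither Fn1 (0.50, adjusted p 0.0683) nor Bgn (0.15, 0.536) was called. The list had 3 higher members without lean array 1, 2 or 4.

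Of 89 cell type markers tested in 10 lists, 24 were called, 9 higher and 15 lower, which is 27.0% beside 23.8% of all features. The counts by direction in each list stand beside 13.5% higher and 10.3% lower of all features. Kupffer cell and macrophage markers had 2 higher and 3 lower of 14: C1qa was lower by 1.18, Clec4f, a receptor specific to rodent Kupffer cells, by 0.91 (SE 0.10, adjusted p 0.000912), and Vsig4 was higher by 0.88 (not called without lean array 1, 0.0503, or 4, 0.0569). The mean level of these markers was 10.53 to 10.71 on the lean and 10.33 to 10.63 on the obese arrays. Stellate cell markers had 2 higher and 1 lower of 12. Pdgfrb was higher by 0.65 (not called without any 1 lean array or obese array 2, adjusted p 0.0509 to 0.0666) and Rgs5 by 0.41 (0.22 with the local deviation subtracted, not called, adjusted p 0.185), and Lrat, the retinol esterase of these cells, was lower by 0.70. Their mean level was 8.14 to 8.28 on the lean and 8.29 to 8.59 on the obese arrays, and its part in the collagen values was not tested.

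Lymphocyte markers had 3 lower of 11, beside 10.3% of all features, led by Cd3d at -0.91 (SE 0.13, adjusted p 0.00230) and Gzmb at -0.72. The lower count was 6 without obese array 1, where more of all features were called, and fell to 2 without some other array. Mean levels of these markers were 7.31 to 7.44 in lean and 7.06 to 7.33 in obese liver. Sinusoidal endothelium had 2 lower and 1 higher of 10. Tek fell to levels not well above background on all 4 obese arrays, so it passed the filter through its lean arrays only. It was at least 1.95-fold lower with this normalization, but its difference was -0.60 with the local deviation subtracted and -4.46 with the processed signal. Lyve1 was at -0.46 (not called without lean array 1 or 4, both at adjusted p 0.0511), and Fcgr2b was higher by 0.59. With the processed signal neither Lyve1 (-0.20, 0.195) nor Fcgr2b (0.32, 0.0887) was called, and Lyve1 was not called in the separate-channel fit (0.0857) or with the mean of its probes (0.0607). Cholangiocyte markers had 1 higher and 2 lower of 5, with Cldn4 at -1.03 and Tff3 at -0.30, the last not called without lean array 1, 2, 3 or 4 or obese array 3 or 4 (0.0539 to 0.117) nor with the block (0.0527), the separate-channel fit (0.175) or no filter on dim probes (0.0519). Adipocyte markers had 1 higher and 3 lower of 7 (1 lower without lean array 4). Matching by synonym put C1qtnf7 in this list in place of Adig, and Ms4a2 in the lymphocyte list in place of Ms4a1. These 2 are not the listed markers. Fabp4 was higher by 0.61 from lean levels not well above background on any array (at least 1.52-fold with this normalization). Cfd was lower by 0.96 (SE 0.06, adjusted p 9.47e-05). Hepatocyte markers had 2 higher of 11 (Cps1, above, and Apoa1 at 0.35, not called without lean array 1, 2 or 4 or obese array 2 or 4, at adjusted p 0.0563 to 0.0882, nor with the block, 0.0824). Neutrophil and erythroid markers had 0 called of 3 and of 7, and pancreas markers 1 of 9 (Cel, -0.27, not called without lean array 1, 3 or 4 or obese array 2, 3 or 4, nor with the block).

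The size of many differences depended on the signal used. For 50 named genes that were called, some alternative moved the difference by over 1.5 times, and for 40 of them the scanner software's processed signal did, with 21 larger and 19 smaller there. Larger ones were Sult2a2 (5.40), Prlr (2.79), Cyp2c12 (2.62), Per2 (2.37), Tap2 (1.62), Fabp4 (3.46), Socs2 (-2.68), Tff1 (-4.78) and Gzmb (-2.95), and all of these were called. Smaller ones that were still called included G0s2 (0.86), Sult2a1 (0.61), Pdk2 (0.54), Ndufv2 (0.44), Prdx6 (0.41) and Hspa5 (-0.69). With the local deviation subtracted Hspa5 was at -0.58 and Ebp at -0.76, and with the mean of all probes of a gene Agxt was at 0.76, Cdkn1a at -0.58 and Hsp90b1 at -0.42. Without obese array 4 Gjd4 was at -3.10.

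The same genotypes differed in a similar way without TU. Between the vehicle RNAs of the same arrays 3431 features, 16.6%, were called, 8.48% of all features higher and 8.1% lower, and 2560 of them were also called under TU, all with the same sign. That is 51.9% of the TU calls and 74.6% of the vehicle calls. The channels share the array surface, slide and normalization, so this overlap is a description. Replicate number as a block left 1586 vehicle calls, and leaving out any 1 lean array left 1435 to 1520. Of the 11 higher genes above, 10 were called under vehicle too, and Col1a1 (0.52, adjusted p 0.29) was not. The 5 lower genes with probes outside the outer zone were all called under vehicle, Tff1 at -2.89 and Ces1d at -2.57.

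**Figure D4:**
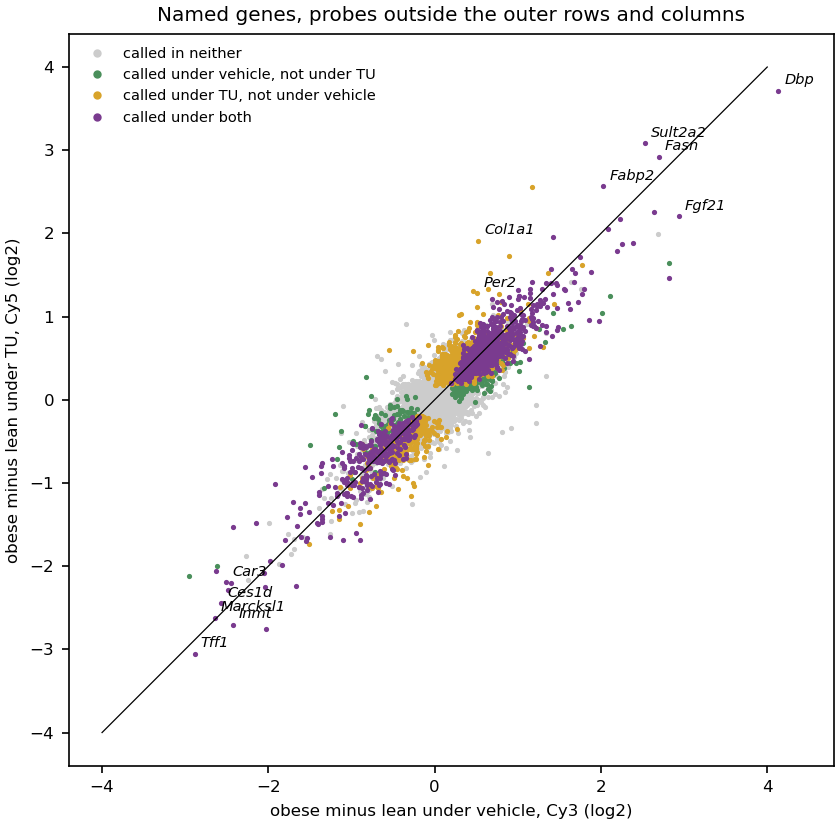
Obese minus lean difference under TU (Cy5) against that under vehicle (Cy3), both in log2 units, for 8064 named genes with probes outside the outer rows and columns; the line marks equal differences. Genes called under both (948) lie along the line, and Col1a1 and Per2 lie above it.

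Whether the obese-lean difference itself changed with TU was tested on the log2 ratio of TU over vehicle within each array. Of 20691 features limma called 1 (0.00483%), and 1691 had an unadjusted p under 0.05. There were 0 calls without lean array 1, 2, 3 or 4 or obese array 1 or 4, and with replicate number as a block. Outside the affected areas it called 0 of 17804 features, with 1467 at an unadjusted p under 0.05. For the genes that led the comparison, the change in the difference was not called: it was 0.23 (SE 0.44) for Fasn, 1.39 (SE 0.71) for Col1a1, -0.79 (SE 0.27) for Socs2 and 0.77 (SE 0.29) for Per2, with adjusted p from 0.581 to 0.863. A p that misses the threshold does not show that TU left these differences as they were. Afp, the fetal albumin, had an obese minus lean difference of 0.58 under TU and -0.26 under vehicle, and Mfsd2a, a lipid transporter, was 1.46 higher under TU and 2.82 higher under vehicle. Both were chosen after their values were seen, and neither change was called (adjusted p 0.24 and 0.58).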

How the data were processed

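Total liver RNA was labelled and hybridised to 8 rat 4x44K arrays, with vehicle RNA in Cy3 and TU RNA in Cy5 on every array and no dye swap, per the labels. Per the file headers, the deposited spot intensities and the flags for spots above background or not uniform came from Feature Extraction 10.7.3.1. The authors deposited per-array log10 ratios in those files and a table of log2 ratios, used here only as an alternative; its scaling is not stated. Intensities were background-corrected (normexp, offset 50), normalized by loess within and Aquantile between arrays, and Cy5 was read as log2, in R 4.3.3 with limma 3.58.1. Control spots were left out. Probes well above background in Cy5 on at least 4 of 8 arrays were kept, and the brightest probe stood for a gene. Accessions named 16815 of 41012 probes through RefSeq (GRCr8) and 195 more through older accessions; 24002 stayed unnamed. Groups were compared with lmFit and eBayes, with Benjamini-Hochberg adjustment over all features.

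Deviations of same-numbered lean and obese arrays, whose number is also the slide position, correlated at 0.62, 0.18, 0.45 and 0.25, and outside the affected areas at 0.21, 0.04, 0.13 and 0.19; a fit with the number as a block was run. Other alternatives fitted both channels separately, subtracted each spot's local deviation, or used the scanner's processed signal. Named genes, a few of which are not reported here, were the 12 largest called differences without overlap in each direction, up to 4 members of each pathway list and 3 of each cell type list, and 10 genes whatever their values; Mcfd2, Gfra1, Sult1c3, Bst2, Ghr, Hadha, Afp, Cesl1 and Mfsd2a were added after their values were seen. The members and lists were chosen with earlier results of these data known. A level not well above background on any array of a group gives only a bound: the brighter group's mean over the dim group's mean of, per array, the higher of the lowest signal well above background and the probe's own. The number of arrays limits the precision. The fit was tested on simulated data.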

Additional observations from a re-analysis of the deposited data

Results flagged for a closer look

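For each of the 127 named genes reported here the highest or lowest array of each group of 4 was compared with the other arrays by Dixon's criterion at the 95% level, which chance alone exceeds in about 1 in 20 groups. Of 247 groups with all 4 values, 12 exceeded it. In 5 of them the array was obese array 1 or lean array 1, the arrays with the central loss of signal; of the 5 spots, only that of Pck1 lay in the centre. Obese array 1 was at 8.40 for Pck1 (others 12.61 to 12.91), at 9.82 for Cdk1 (8.74 to 8.88), at 9.54 for Fabp7 (9.16 to 9.22) and at 7.93 for Socs2 (7.17 to 7.26). Lean array 1 was at 8.62 for Cldn4 (8.19 to 8.23).

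The other obese arrays that stood apart were array 2 for Col1a1, at 12.59 (10.49 to 10.53), and array 4 for Elovl6, at 10.95 (9.85 to 9.94), and for Abcg5, at 7.09 (8.07 to 8.19). Among lean arrays these were array 2 for Vnn1, at 9.69 (9.05 to 9.15), and Lepr, at 7.26 (7.34 to 7.35), array 3 for Sult2a1, at 13.43 (12.98 to 13.01), and array 4 for Stac3, at 13.37 (12.80 to 12.83). The Abcg5 and Cdk1 probes lie in the outer rows or columns.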

How the results depend on the processing

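Under TU, median centring of Cy5 alone left 2 calls (1073 at an unadjusted p under 0.05) and 0 of the 175 calls in gene lists. Leaving out 1 array gave 3182 to 7476 calls, and 129 to 243 in the lists; the other alternatives stayed within 1.5 times. With the processed signal 46.4% of calls were higher, against 56.7%. Between vehicle RNAs, replicate number as a block left 1586 of 3431 calls, and leaving out 1 array gave 1435 to 4784. The TU minus vehicle test gave 0 calls with median centring of ratios (7800 at an unadjusted p under 0.05), the replicate block (1599), trend and robust settings (1768) or outside the affected areas (1467), 3 with the processed signals and with the authors' log ratios, and 0 to 3 without 1 array.

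Signs reversed for Apoa1 (-0.0604 with median centring, -0.0364 with the processed signal), Hbb-b1 (-0.27 and -0.46), Lepr (-0.10, processed signal), Cd3g (0.10, local deviation subtracted) and Pcna (0.29 when well above background on all 8 arrays, 0.24 outside the affected areas). The 0.29 of Pcna is the value of its second probe, which stood for the gene in that setting. Stat3 was at 0.31 outside the affected areas, at 0.12 with local deviation subtracted, and between -0.25 and 0.12 without 1 array. The cause of the other changes of sign was not tested.

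Of 123 named genes called, 85 kept their call in every alternative run for them other than median centring of Cy5 alone, under which 122 lost it, and 25 lost it without some 1 array. The block, which reads 4731 calls under TU, ended 6 of the 123 and no other call of a named gene. Among called genes with spots outside the affected areas, 3 lost the call there. Leaving out these areas, subtracting the local deviation and leaving out both arrays in position 1 were chosen after seeing the data.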
